A study of Mus musculus with 18 samples.

Results

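The genes for glutamate, GABA and glycine receptors were followed in the mouse cerebellum after paraquat, a herbicide that generates superoxide, in animals with different amounts of apolipoprotein D (ApoD), a secreted lipid-binding lipocalin. Members were chosen by symbol: Gria, Grid, Grik, Grin or Grm followed by a digit, or a symbol starting with Gabr, Gabbr, Glra or Glrb. This gave 34 genes of the 12393 with 1 symbol on the array. They comprised 4 AMPA, 1 delta, 4 kainate, 5 NMDA, 1 metabotropic glutamate, 11 GABA-A, 2 GABA-A rho, 1 GABA-B and 4 glycine receptor genes. The rule also took Grid2ip, which encodes delphilin, a protein that binds the delta receptor GluD2 and is no receptor itself. Other genes of these families were not analysed here.

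Glutamate and GABA carry most of the fast excitation and inhibition in the cerebellar cortex. Parallel fibres of granule neurons release glutamate onto AMPA receptors of Purkinje neurons, while Golgi, basket and stellate cells release GABA onto GABA-A receptors, chloride channels built of several subunits. AMPA and kainate receptors are cation channels, NMDA receptors also need glycine or D-serine, GABA-B and metabotropic glutamate receptors act through G proteins, and glycine receptors are chloride channels best known from spinal cord and brainstem. Bergmann glia, the radial astrocytes around Purkinje neurons, carry AMPA receptors too.

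All mice were adult males of 80 ± 5 days. The 3 genotypes were wild-type, ApoD knock-out and Human-ApoD transgenic, the last described as over-expressing ApoD in neurons, with the promoter not given in the sources used here. Each genotype was studied 6 h after 1 injection into the peritoneum, either 200 µl of saline with paraquat (30 mg/kg) or the same volume without it. In each of the 6 groups, 9 mice were combined into 3 pools of 3 for 1 array each, so that errors measure the spread between pools. Titles of the saline arrays name no treatment, which was taken from the protocol.

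Values are levels on the log2 scale, and levels of different genes are not comparable because each probe set has its own brightness. The targeted gene bore out the knock-out label: Apod read 12.38 to 12.54 in wild-type saline pools and 8.22 to 8.50 in knock-out saline pools (log2 difference -4.09, SE 0.13, limma adjusted p = 4.9e-14). Under paraquat Apod read 12.53 to 12.76 in wild-type and 9.16 to 9.83 in knock-out pools (log2 difference -3.12, limma adjusted p = 8.7e-12). Within knock-out mice it rose by 1.16 after paraquat (adjusted p = 3.2e-05). In transgenic pools the mouse Apod probe set read 12.13 to 12.35, and whether it detects the human transcript was not tested. Transgenic differed from wild-type pools by -0.17 under saline (adjusted p = 0.48) and by -0.41 under paraquat (adjusted p = 0.040). For the tissue label, all 9 granule and all 10 Purkinje neuron markers on the array passed the filter on low values given below. Of 9 markers of neighbouring brain regions 4 passed it too, the brainstem genes Hoxb5, Hoxc4 and Hoxa5 and the catecholamine enzyme gene Th. Gabra6, a member described below, is one of the granule markers. Array 2 of knock-out paraquat stood apart, with a mean correlation to the other arrays of 0.971 against 0.986 to 0.993 elsewhere. It held the highest or the lowest value of 18 of the 34 members, and values are given without it where a result rests on it. Leaving out array 1 or 3 of its group gives array 2 more weight, so calls gained in that way lean on it. In whole tissue, fewer cells of a type and less RNA per cell cannot be told apart.

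A gene was tested when it reached the 40th percentile of its array, a level between 6.30 and 6.40, on at least 3 arrays. Of the members, 18 passed and 16 did not. Those that passed were Gria1, Gria2, Gria3, Gria4, Grid1, Grik2, Grik3, Grik5, Grin2c, Gabra2, Gabra3, Gabra6, Gabrb1, Gabrb2, Gabrg1, Gabrd, Gabbr1 and Glrb. Gabra3 reached the level on only 3 arrays, Grik3 on 9 and Grid1 on 14, and the other 15 on all 18.

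The 16 genes below the filter had mean levels between 4.27 and 6.17. They were the NMDA receptor genes Grin2a, Grin2b, Grin2d and Grin3b, the kainate receptor gene Grik1, the metabotropic receptor gene Grm8, the GABA-A genes Gabre, Gabrg3, Gabrp and Gabrq, the rho genes Gabrr1 and Gabrr2, the glycine receptor genes Glra1, Glra3 and Glra4, and Grid2ip. Grin2d reached the level on 2 arrays, with 7.11 on array 2 of knock-out paraquat and 5.87 to 6.45 on the others. That array also gave the highest values of Gabrr1 (5.94, others 4.67 to 5.12) and Grin2a (5.32, others 4.27 to 5.10). No fold change is given for these genes.

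Of the receptor genes, 3 passed the test in 1 comparison each, at a Benjamini-Hochberg adjusted p under 0.05 in limma over all 8320 genes tested. Gria1, the AMPA receptor subunit GluA1, was lower after paraquat on average over the genotypes. Gria3, the subunit GluA3, was lower in transgenic than in wild-type saline mice. Gabbr1, the GABA-binding subunit of the GABA-B receptor, was higher in transgenic than in wild-type mice after paraquat.

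Paraquat against saline called 0 of 18 members in wild-type mice, where 2% of all genes tested were called. It called 0 in knock-out mice against 2.26% of all genes, and 0 in transgenic mice, where 0% of all genes were called. At an unadjusted p under 0.05 the members numbered 0, 4 and 2, beside 9.96%, 17.8% and 1.42% of all genes. Averaged over the genotypes, paraquat called 1 member, which was lower, beside 2.88% of all genes lower and 4.89% in either direction. Its members at an unadjusted p under 0.05 numbered 3, beside 18% of all genes.

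Knock-out against wild-type called 0 members under saline and 0 under paraquat, beside 0.024% and 0.012% of all genes. Unadjusted p-values under 0.05 were found for 1 and 3 members, beside 1.55% and 13.2% of all genes. Transgenic against wild-type called 1 member under saline, where 6.36% of all genes were called, and 1 under paraquat, where 19% were. At an unadjusted p under 0.05 these were 4 and 5 members, beside 24% and 34.4% of all genes. The paraquat effect itself differed from that of wild-type for 0 members in knock-out and 0 in transgenic mice, beside 0% and 0.18% of all genes. There 0 and 1 members had an unadjusted p under 0.05, beside 1.78% and 4.54% of all genes. Against these shares for either direction, a single call among 18 members lies near that of all genes in the average and in transgenic saline mice. It lies below that share in transgenic paraquat mice.

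Median log2 fold changes of the 18 members lay between the quartiles of all genes, except for knock-out against wild-type under saline. For paraquat they were -0.06 in wild-type, -0.08 in knock-out and -0.02 in transgenic mice, with 0.02, -0.09 and -0.03 over all genes. Knock-out against wild-type gave 0.09 under saline and -0.08 under paraquat, with -7e-04 and -0.12 over all genes. The saline median lay above the upper quartile of all genes (0.06). There 4 members lay above the 95th percentile of all genes (0.17) and 0 below the 5th (-0.16). Leaving out knock-out paraquat array 2 gave medians of -0.0012 for the members and 0.01 for all genes for paraquat in knock-out mice, and of 0.02 and -0.01 for knock-out against wild-type under paraquat. Transgenic against wild-type gave 0.06 and -0.01, with -0.01 and -0.06 over all genes.

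**Figure D1:**
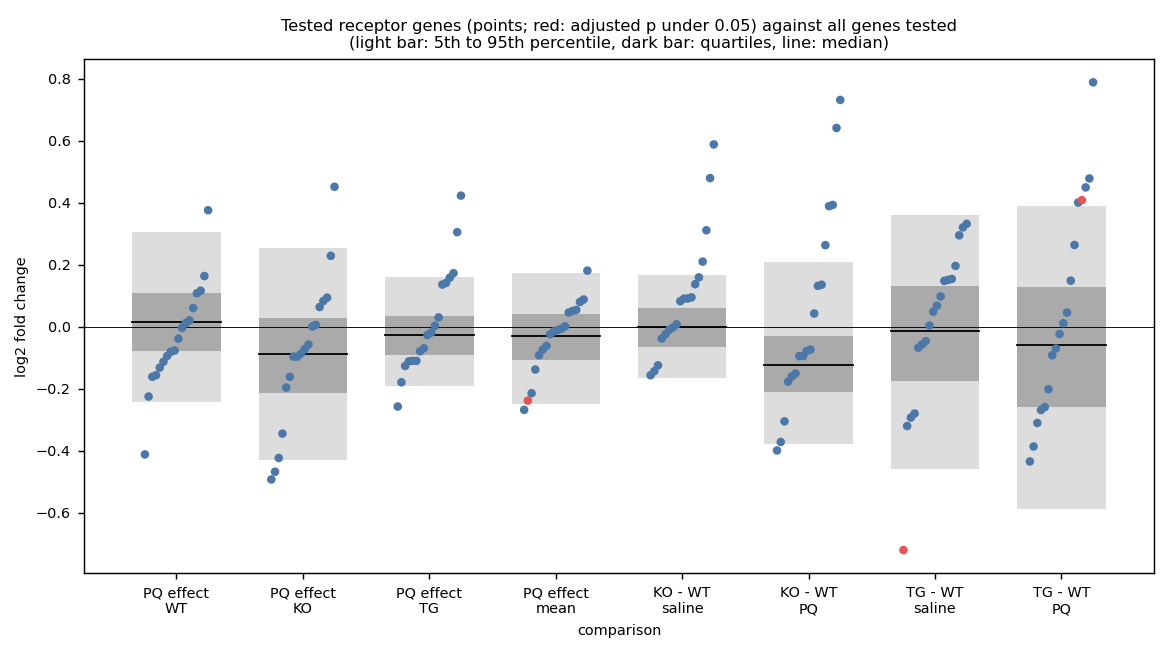
Log2 fold changes of the 18 tested receptor genes (points, red where the adjusted p is under 0.05) in 8 comparisons, over the 5th to 95th percentile (light bar), quartiles (dark bar) and median (line) of all 8320 genes tested; WT, KO and TG are wild-type, knock-out and transgenic, PQ is paraquat. The red points are Gria1 at -0.24 for the mean paraquat effect, Gria3 at -0.72 in transgenic against wild-type saline and Gabbr1 at 0.41 in the same contrast under paraquat.

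These null results bound the changes only loosely. For a member compared between 2 groups, the 95% interval reached 0.32 to either side of the log2 estimate at the median, and 0.24 to 0.80 for single genes. A change of 1.5-fold in either direction lay outside the interval for 14, 11 and 13 of 18 members for paraquat in wild-type, knock-out and transgenic mice, and for 18 of 18 in the average. For the genotypes it lay outside for 13 and 10 members (knock-out, saline and paraquat) and for 10 and 9 (transgenic).

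Among AMPA receptor genes, Gria1 was the one called after paraquat. Its product GluA1 is the subunit that Bergmann glia combine with GluA4. In wild-type mice Gria1 stood at 10.66, 10.75 and 10.77 with saline and at 10.47, 10.71 and 10.66 with paraquat. In knock-out mice it stood at 10.85, 10.98 and 10.76 with saline and at 10.50, 10.32 and 10.74 with paraquat. In transgenic mice the saline levels were 10.60, 10.56 and 10.86 and the paraquat levels 10.33, 10.46 and 10.45. Every paraquat pool of the knock-out and transgenic groups lay below every saline pool of its genotype, while the wild-type groups overlapped.

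Averaged over the genotypes, Gria1 fell by 0.24 on the log2 scale after paraquat (SE 0.07, 0.848-fold, limma adjusted p = 0.046). Within genotypes the log2 fold change was -0.34 in knock-out mice (SE 0.12, adjusted p = 0.13, a value of -0.25 with 0.39 without array 2 of that group and of -0.45 with 0.031 without array 3), -0.26 in transgenic mice (SE 0.12, adjusted p = 1.0, and -0.16 without transgenic saline array 3) and -0.11 in wild-type mice, none of which passed. A second probe set of Gria1 was also lower after paraquat in each genotype, by log2 fold changes of -0.51, -0.13 and -0.23 in the same order. The call sat at the edge of its threshold. It held when knock-out paraquat array 2 (-0.20, adjusted p = 0.043) or 3 or transgenic saline array 2 was left out, and was lost when any of the other 15 was, with adjusted p between 0.051 and 0.12 and changes of -0.26 to -0.21. Pairing the saline and paraquat arrays of a number within genotype gave an adjusted p of 0.066. Astrocyte and Bergmann glia markers, all 12 on the array, averaged 10.41 to 10.45 in wild-type saline and 10.55 to 10.59 in wild-type paraquat pools, 10.42 to 10.47 and 10.29 to 10.67 in knock-out, and 10.47 to 10.71 and 10.58 to 10.67 in transgenic pools. Their part in the result was not tested.

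Gria3 was the AMPA receptor gene called between genotypes. Its product GluA3 forms AMPA receptors together with GluA2 in Purkinje neurons. Its saline levels were 7.77, 7.90 and 7.73 in wild-type, 7.90, 7.80 and 7.58 in knock-out and 7.25, 7.13 and 6.86 in transgenic pools. After paraquat they were 7.39, 7.88 and 7.65 in wild-type, 7.53, 7.07 and 7.41 in knock-out and 7.26, 7.45 and 7.43 in transgenic pools. All 3 transgenic saline pools lay below every other saline pool, and under paraquat the genotypes overlapped.

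Gria3 averaged 7.80 ± 0.09 (SD, n = 3) in wild-type saline and 7.08 ± 0.20 (SD, n = 3) in transgenic saline mice. The log2 difference was -0.72 (SE 0.14, 0.607-fold, limma adjusted p = 0.0071), and 4.38% of all genes were called lower in this comparison. All 29 alternative analyses called it, with differences from -0.80 to -0.61 and adjusted p between 2.5e-05 and 0.046. Under paraquat the same contrast gave -0.26, and the difference between the 2 contrasts, 0.46 (SE 0.20), had an adjusted p of 0.97. Only 1 probe set of Gria3 was on the array. Transgenic saline pools also read lower for choroid plexus markers, of which 6 of 7 were on the array: 6.13 to 7.34 against 8.17 to 8.40 in wild-type saline. Their Purkinje marker mean was 11.07 to 11.12 against 11.19 to 11.23 in wild-type saline. Brainstem markers were higher in transgenic saline pools without overlap, Hoxb5 at 7.98 to 8.46 against 7.37 to 7.58, Hoxc4 at 7.24 to 7.57 against 6.96 to 7.07 and Hoxa5 at 7.82 to 8.11 against 7.50 to 7.69. Their whole list of neighbouring regions, 9 of 15 on the array, averaged 5.82 to 5.99 against 5.77 to 5.85. Lhx2 of that list was lower without overlap. Of the 12 astrocyte markers 5 were higher without overlap, among them Gfap at 10.48 to 10.83 against 9.90 to 10.07. The part of these markers in the result was not tested. Between these saline groups 2 members lay lower in transgenic pools without overlap (Gria3 and Gabra6) and 1 higher (Grik3), where 18.2% and 14.5% of all genes did.

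Within genotypes, Gria3 moved in opposite directions after paraquat. The log2 fold change was -0.42 in knock-out mice (SE 0.14, adjusted p = 0.13) and 0.31 in transgenic mice (SE 0.14, adjusted p = 1.0), without overlap between saline and paraquat pools in either. The transgenic value was 0.19 without transgenic saline array 3. Without knock-out paraquat array 2 the knock-out value was -0.29 (adjusted p = 0.44). Neither change passed. Knock-out paraquat pools also read lower than wild-type paraquat pools on average, by a log2 difference of -0.30 (adjusted p = 0.37) that did not pass and was -0.17 without that array. In transgenic mice 1 member lay higher without overlap after paraquat (Gria3) and 1 lower (Gria1), where 1.18% and 2.51% of all genes did.

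Gria4, the subunit GluA4 of granule neurons and Bergmann glia, was higher in every knock-out than in every wild-type pool. Wild-type mice had 7.78, 7.53 and 7.58 with saline and 7.35, 7.64 and 7.42 with paraquat. Knock-out mice had 8.19, 8.18 and 7.96 with saline and 8.02, 8.10 and 8.21 with paraquat. Transgenic mice had 7.42, 7.55 and 8.22 with saline and 7.16, 7.86 and 8.59 with paraquat. Transgenic pools covered the range of both other genotypes, and replicate 3 was the highest in each transgenic group.

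The log2 difference of knock-out from wild-type for Gria4 was 0.48 under saline (SE 0.24, adjusted p = 1.0) and 0.64 under paraquat (SE 0.24, adjusted p = 0.37), and neither passed. Without knock-out paraquat array 2 the second was 0.65. The shared estimate of the spread included the transgenic pools, whose SD was 0.43 and 0.71 against 0.09 to 0.15 in the 4 other groups. Against wild-type, transgenic mice had 0.40 under paraquat, a value that hung on single arrays: it was 0.76 without transgenic paraquat array 1, which passed (adjusted p = 0.021), and 0.04 without array 3 (adjusted p = 0.92). With only wild-type and knock-out saline arrays in the fit, the saline difference passed (adjusted p = 0.022). The knock-out and wild-type pools did not overlap, with knock-out higher, for 4 members under saline (Gria2, Gria4, Gabra3 and Grik2), where 10.3% of all genes behaved so, and for 3 under paraquat (Gria4, Grik2 and Gabrb2), where 2.16% did. For 0 members were the knock-out pools lower in that way, beside 10.3% and 12.1% of all genes. The paraquat shares include knock-out paraquat array 2, with which the median log2 difference of all genes was -0.12, against -0.01 without it. Counts and shares without that array are not given, so the paraquat counts are not read as a result. Of the 4 under saline, Gabra3 lay below the filter in wild-type pools (5.64 to 5.85) and in knock-out pools except array 2 (6.46).

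Gria2, the subunit GluA2 that limits calcium entry through AMPA receptors, ranged from 10.25 to 11.37 over the 18 arrays. Its mean was 11.00 ± 0.12 in wild-type and 10.68 ± 0.37 in transgenic saline mice (SD, n = 3 each), a log2 difference of -0.32 (SE 0.18, adjusted p = 0.31). Under paraquat the difference was -0.31 (SE 0.18, adjusted p = 0.25). A second probe set gave -0.22 and -0.20, and neither contrast passed. Without replicate 3 of the transgenic group compared, the differences were -0.11 and -0.16.

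**Figure D2:**
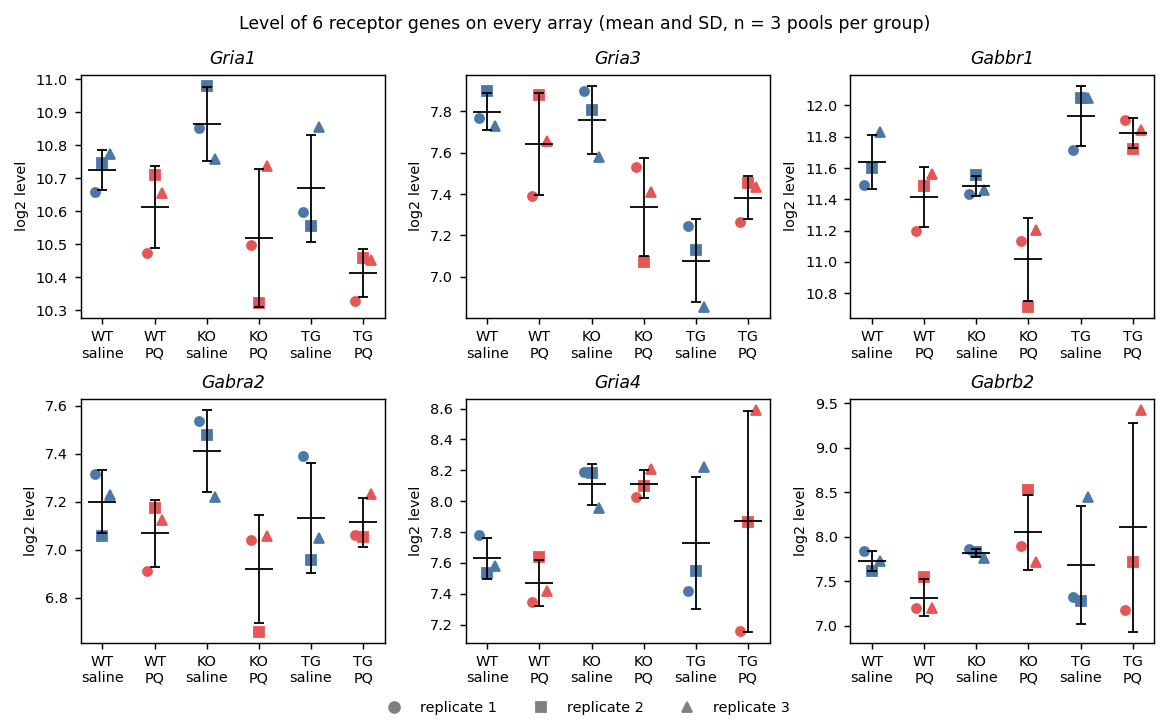
Log2 level of 6 receptor genes on every array by group (blue saline, red paraquat (PQ); circles, squares and triangles are replicates 1, 2 and 3), with the mean and SD of 3 pools; WT, KO and TG are wild-type, knock-out and transgenic, and each panel has its own axis. The mean of Gria3 is lowest in transgenic saline pools (6.86 to 7.25), the means of Gabbr1 are highest in the transgenic groups, and replicate 3 of both transgenic groups is high for Gria4 and Gabrb2.

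Grid1, the delta receptor subunit GluD1, looked raised after paraquat in knock-out mice through a single array. Its levels were 6.13 to 6.36 in knock-out saline mice and 6.43, 7.59 and 6.15 in knock-out paraquat mice. The log2 fold change of 0.45 (SE 0.23, adjusted p = 0.32) became 0.02 (SE 0.14) without array 2, and 0.74 without array 3, which passed (adjusted p = 0.0495). In transgenic against wild-type mice under paraquat, the pools did not overlap, with a log2 difference of 0.45 (SE 0.23, adjusted p = 0.18) that passed only without knock-out paraquat array 2 (adjusted p = 0.011) among the arrays left out singly.

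Among kainate receptor genes, Grik2 and Grik5 encode GluK2 and GluK5, subunits found together in granule neurons. Grik2 levels were 7.21, 6.99 and 7.11 in wild-type saline and 7.05, 7.32 and 6.98 in wild-type paraquat pools. They were 7.41, 7.46 and 7.38 in knock-out saline and 7.51, 7.38 and 7.64 in knock-out paraquat pools. Transgenic pools had 7.12, 7.63 and 7.57 with saline and 6.97, 7.83 and 7.99 with paraquat. Replicate 1 of both transgenic groups lay below the highest wild-type pool, and replicates 2 and 3 were above all wild-type pools.

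Grik2 was 0.48 higher on the log2 scale in transgenic than in wild-type paraquat mice, with an SE of 0.19 and an adjusted p of 0.083, which did not pass. Without transgenic paraquat array 1 the difference was 0.79 and passed (adjusted p = 0.0021), and without array 3 it was 0.28 (adjusted p = 0.33). Knock-out pools lay above wild-type pools under both treatments, with log2 differences of 0.31 and 0.39 that did not pass.

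Grik5 had 8.39, 8.34 and 8.63 in wild-type saline pools and 8.42, 8.48 and 8.63 in wild-type paraquat pools. Knock-out pools gave 8.48, 8.62 and 8.51 with saline and 8.15, 8.68 and 8.49 with paraquat. Transgenic pools gave 8.53, 8.99 and 8.79 with saline and 8.87, 8.71 and 8.75 with paraquat. Transgenic paraquat pools lay above all wild-type pools, while transgenic saline pool 1 lay below the highest of them.

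The log2 difference of transgenic from wild-type was 0.32 for Grik5 under saline (SE 0.14, adjusted p = 0.15) and did not pass. Without transgenic saline array 1 it was 0.44 and passed (adjusted p = 0.040), and without array 2 it was 0.21 (adjusted p = 0.50). Grik3, the subunit GluK3, ranged from 6.10 to 6.66 over the arrays, at the edge of the filter, and none of its comparisons passed. Its log2 fold changes ran from -0.08 to 0.16. The highest, for the paraquat effect of knock-out minus wild-type mice, was 0.02 without knock-out paraquat array 2.

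Grin2c encodes GluN2C, the NMDA receptor subunit of mature granule neurons. It ranged from 9.39 to 10.15, with the lowest value on knock-out paraquat array 2. After paraquat its log2 fold change was -0.04 in wild-type, -0.20 in knock-out and -0.18 in transgenic mice, and -0.14 on average. None of the 4 passed. The knock-out value was -0.06 and the average -0.09 without knock-out paraquat array 2.

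**Figure D3:**
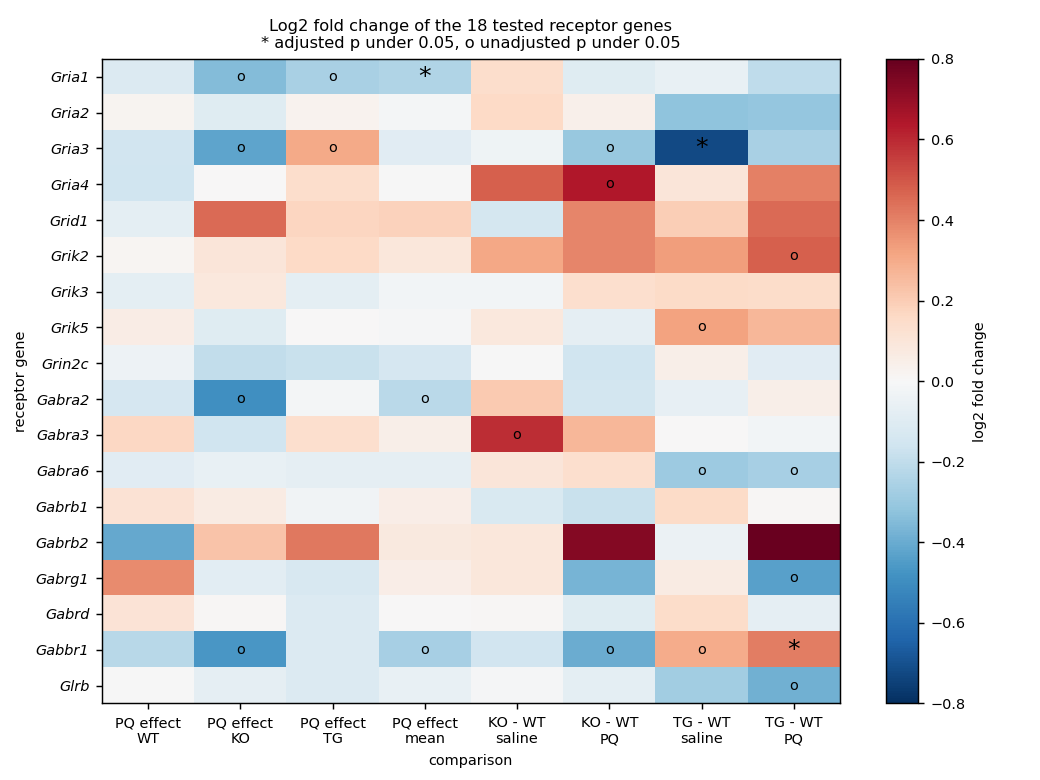
Log2 fold change (colour) of each tested receptor gene (rows) in 8 comparisons (columns), with an asterisk at an adjusted p under 0.05 and a circle at an unadjusted p under 0.05; WT, KO and TG are wild-type, knock-out and transgenic, PQ is paraquat. The 3 asterisks stand at Gria1 (mean paraquat effect), Gria3 (transgenic against wild-type, saline) and Gabbr1 (transgenic against wild-type, paraquat).

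Turning to inhibition, Gabbr1 was the one GABA receptor gene called in a comparison. The GABA-B receptor is an obligate pair of its product, which binds GABA, with a second subunit that couples to G proteins. Wild-type pools had 11.49, 11.60 and 11.83 with saline and 11.20, 11.49 and 11.56 with paraquat. Knock-out pools had 11.44, 11.56 and 11.46 with saline and 11.13, 10.71 and 11.20 with paraquat. Transgenic pools had 11.71, 12.05 and 12.04 with saline and 11.91, 11.72 and 11.85 with paraquat. Transgenic paraquat pools lay above all wild-type paraquat pools, and knock-out paraquat pools below all knock-out saline pools.

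Under paraquat, Gabbr1 averaged 11.82 ± 0.10 (SD, n = 3) in transgenic and 11.41 ± 0.19 (SD, n = 3) in wild-type mice. The log2 difference was 0.41 (SE 0.14, 1.33-fold, limma adjusted p = 0.043), where 4.64% of all genes were called higher. Under saline it was 0.30 (SE 0.14, adjusted p = 0.19) and did not pass. The mean over probe sets gave 0.33 under saline (adjusted p = 0.043) and 0.37 under paraquat (adjusted p = 0.012). The 4 probe sets of Gabbr1 were all higher in transgenic mice, by 0.12 to 0.70 under paraquat and 0.16 to 0.57 under saline. The call was lost without wild-type paraquat array 1 (0.30, adjusted p = 0.20) or 2, any transgenic paraquat array, any knock-out saline array or wild-type saline array 1 or 2, with differences of 0.30 to 0.46 and adjusted p between 0.0505 and 0.20. It held without any of the other 8. Choroid plexus markers averaged 6.87 to 7.80 in transgenic and 8.10 to 8.29 in wild-type paraquat pools. Higher in transgenic paraquat pools without overlap were the brainstem markers Hoxb5 (7.86 to 8.60 against 7.06 to 7.82) and Hoxc4 (7.32 to 7.55 against 6.73 to 7.15). Neurod6 and Th, of the same list of neighbouring regions, were lower without overlap. Of the astrocyte markers, Gfap (10.49 to 10.93 against 9.93 to 10.42) and Slc1a2 were higher without overlap, and Gja1 and Gjb6 were lower. The list of neighbouring regions averaged 5.87 to 5.98 in transgenic and 5.73 to 5.90 in wild-type paraquat pools, and the astrocyte list 10.58 to 10.67 and 10.55 to 10.59. The Purkinje marker mean was lower without overlap, at 11.06 to 11.11 in transgenic against 11.12 to 11.17 in wild-type paraquat pools. Of the Purkinje markers 2 were higher (Pcp2 and Slc1a6) and 2 lower (Pcp4 and Calb1) without overlap. The part of these markers in the result was not tested.

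After paraquat, the log2 fold change of Gabbr1 was -0.47 in knock-out mice (SE 0.14, adjusted p = 0.085) and -0.27 on average (SE 0.08, adjusted p = 0.059). Neither passed. Pairing arrays within genotype moved the average to an adjusted p of 0.0496. With the mean over probe sets in place of the brightest, the average was -0.08 (adjusted p = 0.50) and the knock-out change -0.18 (adjusted p = 0.37). Without knock-out paraquat array 2 the knock-out change was -0.32 (adjusted p = 0.30) and the average -0.22 (adjusted p = 0.062). Without knock-out paraquat array 3 both passed, at -0.56 (adjusted p = 0.032) and -0.30 (adjusted p = 0.027), and without transgenic saline array 1 the average did, at -0.30 (adjusted p = 0.033). The omission of array 3 left the outlying array 2 more weight in its group. Against wild-type paraquat mice, Gabbr1 in knock-out paraquat mice differed by -0.40 (adjusted p = 0.37), by -0.25 without array 2 and by -0.05 with the mean over probe sets, and did not pass. Of the 4 probe sets, 3 were lower in knock-out mice after paraquat and the dimmest was higher by 0.34. Probe sets also disagreed between knock-out and wild-type saline mice, where one of them gave 0.56 and the one used here gave -0.16.

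Gabra2, a GABA-A alpha subunit found in Bergmann glia among other cells, had the smallest p of the members for paraquat in knock-out mice. Levels were 7.32, 7.06 and 7.23 in wild-type saline and 6.91, 7.17 and 7.12 in wild-type paraquat pools. They were 7.54, 7.48 and 7.22 in knock-out saline and 7.04, 6.66 and 7.06 in knock-out paraquat pools. Transgenic pools had 7.39, 6.96 and 7.05 with saline and 7.06, 7.05 and 7.23 with paraquat. Knock-out paraquat pools lay below knock-out saline pools, and the groups of the other genotypes overlapped.

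In knock-out mice the log2 fold change of Gabra2 after paraquat was -0.49 (SE 0.14, 0.711-fold, adjusted p = 0.064), which did not pass. It was -0.36 (adjusted p = 0.23) without array 2 of that group. On average over the genotypes it was -0.21 (adjusted p = 0.13), which did not pass either. The knock-out change passed without knock-out paraquat array 3 (-0.56, adjusted p = 0.033) or transgenic saline array 1 (adjusted p = 0.039). In all, 4 members lay lower without overlap in knock-out mice after paraquat (Gria1, Gria3, Gabra2 and Gabbr1), where 17.7% of all genes did, and 0 lay higher, where 4.99% did. Without array 2, 9 members were higher and 9 lower, in place of 7 and 11, and the median of all genes moved from -0.09 to 0.01.

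Promoters of Gabbr1 and Gabra2 are shown because these were the members with the smallest p-values for paraquat in knock-out mice. RefSeq (GRCm38.p6) held a promoter for 26 of the 34 members. Each runs from 250 bases before to 50 bases after the gene's start, 5′ to 3′ on its own strand, at chr17:37045716-37046015 (plus strand) for Gabbr1 and chr5:71095800-71096099 (minus strand) for Gabra2. Capitals mark GC boxes, GGGCGG on the strand shown or its reverse complement CCGCCC.
Gabbr1: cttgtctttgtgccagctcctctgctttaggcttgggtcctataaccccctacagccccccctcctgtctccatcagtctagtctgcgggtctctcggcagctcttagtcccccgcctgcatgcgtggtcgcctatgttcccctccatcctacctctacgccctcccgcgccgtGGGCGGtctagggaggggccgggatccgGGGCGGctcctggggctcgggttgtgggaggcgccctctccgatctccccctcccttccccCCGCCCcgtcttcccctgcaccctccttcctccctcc
Gabra2: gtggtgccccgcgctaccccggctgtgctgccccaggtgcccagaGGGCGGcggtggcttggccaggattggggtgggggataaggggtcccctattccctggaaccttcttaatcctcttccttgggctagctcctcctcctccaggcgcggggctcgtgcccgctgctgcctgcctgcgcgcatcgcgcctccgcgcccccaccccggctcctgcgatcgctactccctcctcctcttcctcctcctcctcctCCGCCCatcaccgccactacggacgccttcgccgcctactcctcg

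The Gabbr1 promoter held 3 GC boxes and the Gabra2 promoter 2, without overlap, and 35.7% of the 32851 promoters in the table held at least 1. The letters TGACG, found in cAMP response elements, and AGAACA, found in glucocorticoid receptor sites, were searched on both strands. Neither was in these windows. They were in 20.8% and 19% of all promoters.

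Gabra3, another GABA-A alpha subunit, passed the filter through 3 arrays only, 2 of them replicate 3 of the transgenic groups. Wild-type pools had 5.85, 5.71 and 5.64 with saline and 5.81, 5.92 and 5.96 with paraquat. Knock-out pools had 6.25, 6.46 and 6.26 with saline and 6.32, 5.87 and 6.29 with paraquat. Transgenic pools had 5.25, 5.47 and 6.50 with saline and 5.42, 5.56 and 6.65 with paraquat. All knock-out saline pools lay above all wild-type saline pools, and both transgenic groups split into 2 low pools and 1 high pool.

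The log2 difference of knock-out from wild-type under saline was 0.59 for Gabra3 (SE 0.27, adjusted p = 1.0) and did not pass. With only the arrays of those groups in the fit it passed (adjusted p = 0.0067). That fit kept the filter taken over all arrays. Of the arrays compared only knock-out saline array 2 (6.46) reached the level, and wild-type saline pools (5.64 to 5.85) lay below it. This call therefore rests on values mostly below the filter. Under paraquat the difference was 0.26, and 0.41 without knock-out paraquat array 2.

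Gabrb2, a GABA-A beta subunit, had the widest spread within groups of all members, with a within-group SD of 0.58, at the 99.9th percentile of all genes. Wild-type pools had 7.84, 7.61 and 7.73 with saline and 7.20, 7.55 and 7.20 with paraquat. Knock-out pools had 7.86, 7.83 and 7.77 with saline and 7.90, 8.53 and 7.72 with paraquat. Transgenic pools had 7.32, 7.27 and 8.45 with saline and 7.18, 7.72 and 9.42 with paraquat. Replicate 3 of both transgenic groups and knock-out paraquat array 2 were the 3 highest of the 18.

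The log2 difference of Gabrb2 between transgenic and wild-type paraquat mice was 0.79 (SE 0.38, adjusted p = 0.15) and did not pass. It rested on transgenic paraquat array 3, without which it was 0.13 (adjusted p = 0.78). Without array 1 it was 1.25 and passed (adjusted p = 0.030). Wild-type paraquat pools lay below wild-type saline pools, and the log2 fold change there was -0.41 (adjusted p = 0.92). The same 3 arrays had the lowest difference between the 3′ and 5′ control probe sets for pyruvate carboxylase, a measure that moves with RNA handling and labelling. It was 1.82 and 1.95 on replicate 3 of the transgenic groups and 2.25 on knock-out paraquat array 2, against 2.63 to 3.16 on the others. The part of this measure in the levels of Gabrb2, Gria4 and Gabra3 was not tested.

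**Figure D4:**
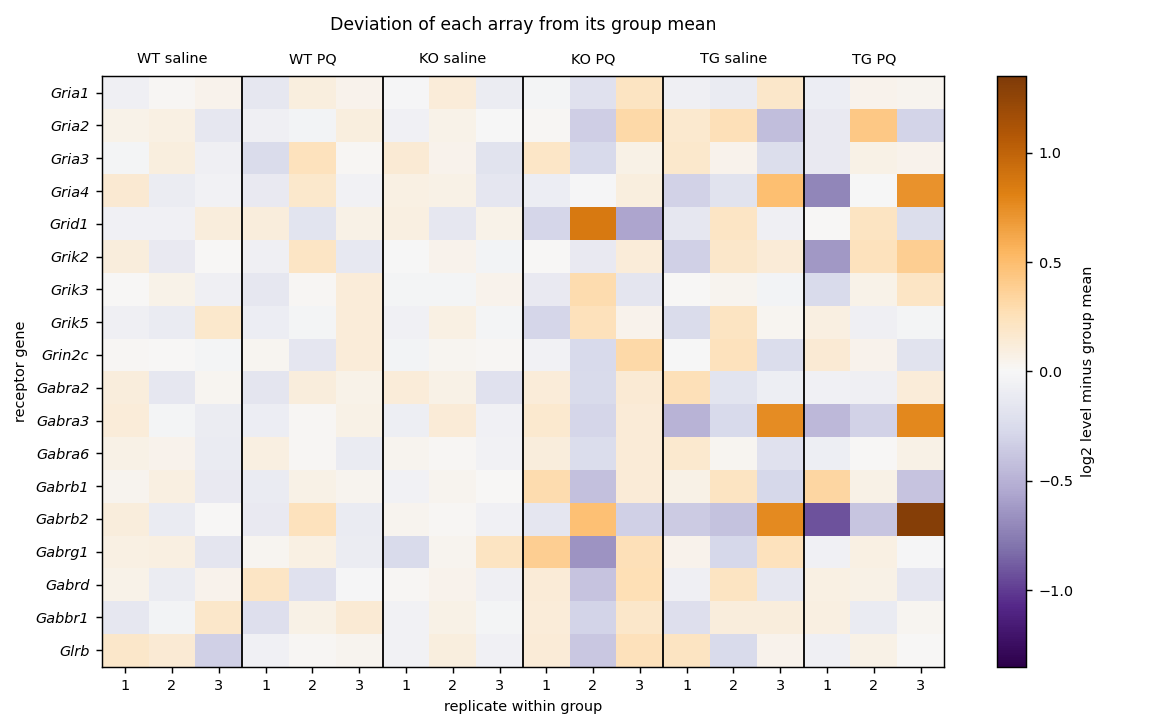
Log2 level minus the mean of its group (colour) for the 18 tested receptor genes (rows) on the 18 arrays (columns, by group and replicate); WT, KO and TG are wild-type, knock-out and transgenic, PQ is paraquat. Gabrb2, Gria4 and Gabra3 are high on replicate 3 of both transgenic groups, and knock-out paraquat array 2 departs in both directions.

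Gabra6 encodes the alpha subunit by which cerebellar granule neurons are known, and it is joined there by Gabrd, whose delta subunit belongs to receptors outside the synapse. Gabra6 stood at 12.67, 12.65 and 12.49 in wild-type saline and at 12.61, 12.53 and 12.40 in wild-type paraquat pools. In knock-out pools it was 12.74, 12.72 and 12.65 with saline and 12.75, 12.41 and 12.78 with paraquat. In transgenic pools it was 12.48, 12.34 and 12.12 with saline and 12.17, 12.25 and 12.31 with paraquat. Transgenic pools lay below wild-type pools under each treatment, and the within-group spread was among the smallest of the members (SD 0.13).

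The log2 difference of transgenic from wild-type was -0.29 for Gabra6 under saline (SE 0.12, 0.817-fold, adjusted p = 0.13) and -0.27 under paraquat (SE 0.12, adjusted p = 0.11). Neither passed. Without knock-out paraquat array 2 both did, with the same differences and adjusted p of 0.034 and 0.032, and without transgenic saline array 1 the first was -0.37 (adjusted p = 0.048). A second probe set was also lower, at -0.27 under saline and -0.18 under paraquat. Granule neuron markers, a list that holds Gabra6 and had 9 of 12 genes on the array, averaged 10.75 to 10.82 in transgenic and 10.73 to 10.78 in wild-type saline pools. Under paraquat they averaged 10.61 to 10.82 and 10.64 to 10.69. Besides Gabra6, Pax6 was lower in transgenic pools without overlap under each treatment. Higher without overlap were Cbln1 under each treatment and Calb2 and Neurod2 under paraquat. The part of these markers in the result was not tested. Gabrd ranged from 9.62 to 10.37, and its log2 fold changes for paraquat were 0.11, 0.01 and -0.11 in wild-type, knock-out and transgenic mice, none of which passed. The knock-out value was 0.21 without array 2 of knock-out paraquat, which held the lowest level.

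Gabrg1, the gamma subunit of Bergmann glia, had 7.13, 7.14 and 6.88 in wild-type saline and 7.45, 7.51 and 7.33 in wild-type paraquat pools. Knock-out pools had 6.88, 7.18 and 7.36 with saline and 7.44, 6.41 and 7.31 with paraquat. Transgenic pools had 7.16, 6.84 and 7.35 with saline and 6.93, 7.08 and 6.97 with paraquat. Wild-type paraquat pools lay above wild-type saline and transgenic paraquat pools, and the low value of the knock-out paraquat group was array 2. In wild-type mice Gabrg1 was the 1 member that lay higher after paraquat without overlap and Gabrb2 the 1 that lay lower, where 16.6% and 11.8% of all genes did.

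In wild-type mice the log2 fold change of Gabrg1 after paraquat was 0.38 (SE 0.20, adjusted p = 0.59), the smallest p of the members there. After paraquat the log2 difference of transgenic from wild-type mice was -0.43, with an SE of 0.20 and an adjusted p of 0.13, or of 0.016 without knock-out paraquat array 2. A second, dimmer probe set went the other way in that contrast, at 0.06, and the mean over probe sets gave -0.19 (adjusted p = 0.42). The paraquat effect of transgenic minus that of wild-type mice was -0.50 (SE 0.28, adjusted p = 1.0). Gabrb1, a beta subunit, ranged from 8.71 to 9.65 with log2 fold changes of -0.18 to 0.15 over the 10 comparisons, none of which passed. The lowest level and the lowest change, in knock-out against wild-type paraquat mice, came from knock-out paraquat array 2. Without it that change was 0.03, and the change after paraquat in knock-out mice was 0.27.

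Glrb encodes the glycine receptor beta subunit, which ties the receptor to the scaffold gephyrin. It stood at 10.77, 10.72 and 10.25 in wild-type saline and 10.52, 10.60 and 10.61 in wild-type paraquat pools. Knock-out pools had 10.52, 10.68 and 10.52 with saline and 10.63, 10.12 and 10.74 with paraquat. Transgenic pools had 10.51, 10.05 and 10.34 with saline and 10.12, 10.26 and 10.19 with paraquat. Under paraquat all transgenic pools lay below all wild-type pools.

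Glrb differed by -0.39 on the log2 scale between transgenic and wild-type paraquat mice (SE 0.16, 0.766-fold, adjusted p = 0.087), which did not pass. It passed without knock-out paraquat array 2 (adjusted p = 0.026). Under paraquat, 3 members lay higher in transgenic than wild-type pools without overlap (Grid1, Grik5 and Gabbr1) and 4 lower (Gria1, Gabra6, Gabrg1 and Glrb), where 14.4% and 27.6% of all genes did. The second probe set of Gria1 went the other way in this contrast, at 0.28 against -0.20.

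The proteins that place, modify and supply these receptors were read from 4 lists: AMPA and delta receptor scaffolds and auxiliary subunits (20 genes tested), GABA and glycine receptor scaffolds and auxiliary proteins (11), metabotropic glutamate receptor 1 signalling (8) and transmitter synthesis, loading and uptake (19). After paraquat 0 genes of the 4 lists were called in any genotype or on average, and 0 in knock-out against wild-type under either treatment. The calls lay in transgenic against wild-type mice. In the order given, their median log2 fold changes for paraquat in knock-out mice were -0.12, -0.16, -0.12 and -0.11, with -0.09 over all genes. They were -0.0059, -0.04, -0.03 and 0.0041 without knock-out paraquat array 2, with 0.01 over all genes. In transgenic against wild-type mice they were 0.15, 0.15, -0.01 and -0.02 under saline, with -0.01 over all genes, and 0.06, 0.09, 0.05 and -0.04 under paraquat, with -0.06 over all genes.

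Under saline, transgenic mice had higher levels of 4 of these 58 genes and lower levels of 0, a share of 6.9%. Of all genes 6.36% were called in either direction, and 4.38% were called lower. The list calls were thus all higher, where most calls over all genes were lower. Cnih2, an auxiliary subunit of AMPA receptors, was 0.35 higher on the log2 scale (SE 0.10, limma adjusted p = 0.048). The glutamate transporters Slc1a1 and Slc1a2 were 0.38 (SE 0.09, adjusted p = 0.022) and 0.48 (SE 0.13, adjusted p = 0.034) higher. The glycine transporter Slc6a9 was 0.43 higher (SE 0.12, adjusted p = 0.033).

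Under paraquat, 5 genes of the lists were higher in transgenic mice and 2 lower, a share of 12.1%. Of all genes 19% were called in either direction, and 4.64% were called higher. Most list calls were thus higher, where most calls over all genes were lower. Slc6a9 was 0.44 higher, Slc1a2 0.39 and the astrocytic glutamate transporter Slc1a3 0.51. Cacng4, an auxiliary AMPA receptor subunit, was 0.37 higher, and Plcb4, the phospholipase that follows metabotropic receptor activation in Purkinje neurons, was 0.61 higher (SE 0.15, adjusted p = 0.0090). The vesicular glutamate transporter Slc17a6 was lower, with a log2 difference of -0.62 (SE 0.14, adjusted p = 0.0044). The other lower gene was Slc38a2, a glutamine transporter, at -0.41 (adjusted p = 0.049).

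Those list counts depended on knock-out paraquat array 2 through the shared spread. Without it, transgenic saline mice had 4 higher and 1 lower genes in the AMPA list and 5 higher and 3 lower in the transmitter list, in place of 1 and 0 and of 3 and 0. Under paraquat they had 2 and 2 and 5 and 4, in place of 1 and 0 and of 3 and 2, and the metabotropic signalling list had 2 higher in place of 1. In the GABA list, 1 gene in place of 0 was higher under saline. Calls over all 8320 genes also moved with the array left out. They numbered 108 to 1564 under saline and 828 to 2823 under paraquat over the single omissions. With all arrays they numbered 529 and 1578. The share of all genes without knock-out paraquat array 2 is not given, so these list counts cannot be set against it. Slc1a2 and Slc1a3 also belong to the astrocyte markers, whose mean was 10.47 to 10.71 in transgenic and 10.41 to 10.45 in wild-type saline pools. Under paraquat, where Slc1a3 was called, it was 10.58 to 10.67 and 10.55 to 10.59. There 2 astrocyte markers were higher and 2 lower in transgenic pools without overlap. The part of astrocyte markers in these calls was not tested.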

How the data were processed

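RNA pools of mouse cerebellum were hybridised to Affymetrix 3′ expression arrays, 18 in 6 groups of 3. The authors deposited 1 log2 value per probe set and array. They used RMA (background correction, quantile normalisation and a summary over probes), per the submitters' processing notes, which name no version. The log2 scale was taken from the values. Scanner files were not used, so background was not examined, and the number of arrays limits the precision.

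Gene symbols are those of the array's annotation in GEO and may be outdated: 20380 of 22690 probe sets had 1 symbol, 691 several and 1555 none, and 64 were controls. For each gene the probe set with the highest mean level was used. One limma fit covered all arrays, with a mean per group and 12 residual degrees of freedom (limma 3.58.1, R 4.3.3, lmFit and eBayes, tested on simulated data). All adjusted p-values are limma's, two-sided, over 8320 genes within a comparison. For 10 comparisons, alternatives changed the normalisation, filter, probe sets, array weights, moderation, block and arrays used.

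Per-array values are given for the 3 genes called and the 9 next by smallest p, fold changes for members with an unadjusted p under 0.05 and at least the 2 smallest p in a comparison, and up to 6 called list genes a comparison. Grid1, Gria2, Grik3, Grin2c, Gabrb1, Gabrd and Slc38a2, and some further contrasts, were described outside that rule. Members and lists were chosen with earlier results of these data known. Deviations from group means were correlated between saline and paraquat arrays of the same number. The values were r = 0.16, 0.13 and 0.42 in transgenic, 0.09, 0.15 and 0.34 in wild-type and -0.09, -0.28 and -0.12 in knock-out mice. Arrays of unlike number gave -0.26 to 0.16 in transgenic, -0.21 to 0.10 in wild-type and -0.17 to 0.30 in knock-out mice. Only number 3 in transgenic and wild-type mice stood clearly above the unlike pairs of its genotype.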

Additional observations from a re-analysis of the deposited data

Results flagged for a closer look

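Gria3 moved in opposite directions after paraquat in 2 genotypes, with every paraquat pool below every saline pool in knock-out mice (log2 fold change -0.42) and above every saline pool in transgenic mice (0.31). The difference between these effects was 0.73 (SE 0.20, unadjusted p = 0.0017, limma adjusted p = 0.41 over all genes, where 4 genes were called). That comparison was added after the values were seen, and it did not pass.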

How the results depend on the processing

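The 29 named fold changes were recomputed under up to 30 alternatives each. Of 844 alternative values, 767 kept direction and call and 0 were reversed. Gria3 in transgenic against wild-type saline mice was called in all 29 of its alternatives, Gabbr1 under paraquat in 15 of 29 (0.30 to 0.48, adjusted p 0.0075 to 0.20) and Gria1 on average in 9 of 29 (-0.27 to -0.18, adjusted p 0.0074 to 0.12). Leaving out each array in turn, members called ranged from 0 to 0 for paraquat in wild-type, 0 to 4 in knock-out, 0 to 0 in transgenic mice and 0 to 2 on average. They ranged from 0 to 0 in knock-out against wild-type under either treatment, 1 to 3 and 0 to 5 in transgenic against wild-type under saline and paraquat, and 0 to 0 for either difference of paraquat effects. Over all genes the same omissions gave 63 to 614 calls for paraquat in knock-out mice, 261 to 657 on average, and 108 to 1564 and 828 to 2823 in transgenic against wild-type. The 4 members in knock-out mice (Gabbr1, Gabra2, Gria1 and Grid1) were called without knock-out paraquat array 3. That omission gives the outlying array 2 more weight.

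Array weights called 5 members for paraquat in knock-out mice, 4 on average, 2 in knock-out and 9 in transgenic against wild-type saline mice, 8 in transgenic against wild-type paraquat mice and 1 (Gria3) for the transgenic difference of effects. With the compared groups alone, 2 were called for paraquat in wild-type (Gabrb2 and Gabrg1), 2 in knock-out against wild-type saline (Gabra3 and Gria4) and 4 in transgenic against wild-type paraquat mice. For the average this is the same fit. These fits kept the filter taken over all arrays, and Gabra3 lay mostly below it on the knock-out and wild-type saline arrays. On average, 2 were called (Gabbr1 and Gria1) with repeated quantile normalisation, with a mean-variance trend and with the replicate number as a block over all arrays, and 0 without a filter. In transgenic against wild-type saline mice, 2 were called with repeated quantile normalisation and 2 with the mean over probe sets. Shares of all genes called are not given for the settings of this and the next paragraph. These member counts are therefore not read as results about the receptor genes.

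The replicate block within genotype called 1 member on average, Gabbr1 (adjusted p 0.0496) in place of Gria1 (0.066), changed no call in transgenic mice and cannot serve comparisons of genotypes. The block over all arrays changed no other call. The settings that dropped both transgenic arrays of a number were chosen after seeing the data. Without number 1, members called were 1 for paraquat in knock-out mice (Gabra2), 4 and 3 in transgenic against wild-type under saline and paraquat. Without number 2 they were 0 on average and 0 in transgenic against wild-type paraquat mice, and without number 3 they were 0 on average. Where not stated above, the cause was not tested.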
